A study of Rattus norvegicus with 12 samples.

Results

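The genes described here are 10 receptors and ligands of the platelet derived growth factor (PDGF) and fibroblast growth factor (FGF) systems: Pdgfra, Pdgfrb, Fgfr1 and Fgfr2 among the receptors, and Pdgfa, Pdgfb, Pdgfc, Fgf1, Fgf2 and Fgf7 among the ligands. Members were chosen by name. Every probe set (a group of short probes read together as 1 value) whose single gene symbol was a listed gene was taken, which gave 18 probe sets for 9 of the 10 genes, out of 14217 genes measured in this way. For Pdgfb no probe set carried its symbol alone, and it has no value here.

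The RNA came from F111 cells, a fibroblast line of the Fischer rat, grown with serum and hybridised to Affymetrix rat expression arrays. Colony cells were derived from F111 cells that had been kept 16 h in suspension (NA16 cells) and then held for 7 days in soft agar; the agar was broken up and the cells attached for a short time before RNA was taken. A16 cells, the control, were F111 cells kept 16 h on plastic, where they adhere. Each group had 3 arrays: biological replicate 1, a technical replicate 2 that was averaged with it, and biological replicate 2, so n = 2 cultures per group, and p-values cover only the spread between these. The groups thus differ in substratum, in time and in passage through suspension. By the paper's karyotypes they also differ in their chromosomes, with a translocation of chromosome 2 in few A16 cells and in all colony cells. These differences cannot be told apart. All cells come from 1 line. One of the labels of Colony biological replicate 2 names tumour formation while its other labels name the colony, and results that change without that array are given without it too.

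Receptors of both families are tyrosine kinases in the cell membrane. PDGF ligands are dimers that pair the alpha and beta receptors, which are best known from fibroblasts, pericytes and smooth muscle. Most FGFs bind their receptor together with heparan sulphate chains, which is why the enzymes and core proteins that make these chains belong to the same system. Downstream, both families feed the Ras, ERK and PI3 kinase routes, and ERK activity induces its own inhibitors, the Sprouty proteins and the dual specificity phosphatases. PDGF and basic FGF are classical mitogens of fibroblasts.

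Fgf1 was the 1 member gene that changed past the thresholds. It was lower in Colony cells, and all 3 of its probe sets had every Colony array below every A16 array. Of the receptors, Pdgfra was 1.46 times its A16 level in Colony cells (adjusted p from limma 0.0232), a difference below the fold threshold. The brightest probe set of Fgfr1 was 1.5 times its A16 level (adjusted p from limma 0.0684). For both, the adjusted p fell on either side of 0.05 over the alternative analyses. In the main fit on RMA values neither Pdgfrb, Fgfr1 nor Fgfr2 passed the test. Pdgfa, Pdgfc, Fgf2 and Fgf7 did not pass either, and the interval for Pdgfa was wide.

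A probe set was called where its adjusted p from limma was under 0.05 and its fold change over 2. By this rule 0 of the 18 member probe sets were higher and 2 were lower in Colony cells, against 4.0% of all 31042 probe sets higher and 5.81% lower, 9.81% in both directions. With no fold threshold, 4 of the 18 had an adjusted p under 0.05, while 22.7% of all probe sets had one, and 7 had an unadjusted p under 0.05, beside 34.0% of all probe sets. The 3 Colony arrays lay all above or all below the 3 A16 arrays for 8 of the 18 (3 higher, 5 lower), beside 45.9% of all probe sets. The median log2 fold change was -0.11 over the member probe sets and 0.05 over all probe sets. With each gene read by its brightest probe set, 0 of 9 genes were higher and 1 was lower, with 4.36% and 4.75% of all genes in those directions. These shares were not tested and say nothing of the members as a group.

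**Figure D1:**
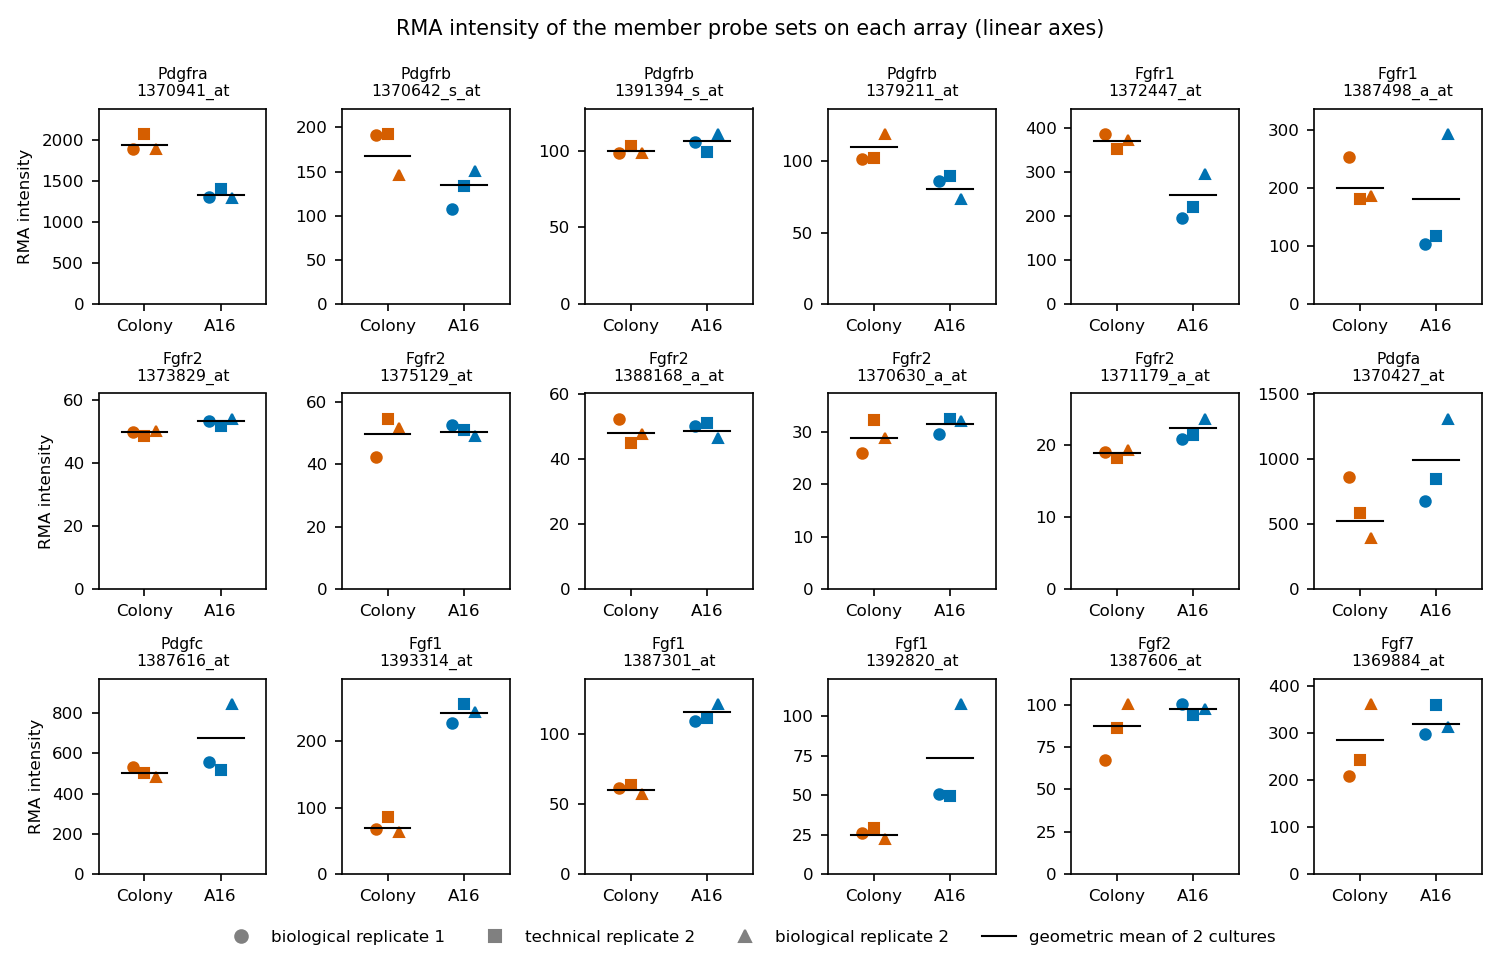
RMA intensity (vertical axes, linear, a separate scale for each panel) of the 18 member probe sets on the 3 Colony arrays (left) and the 3 A16 arrays (right); the symbol shape gives the replicate and the line is the geometric mean of 2 cultures. The Fgf1 panels show all Colony arrays below all A16 arrays, and the Pdgfra panel shows Colony arrays at 1886 to 2071 above A16 arrays at 1294 to 1401.

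Values below are RMA intensities, the authors' background corrected and normalized summary of each probe set, and fold changes are log2 of Colony over A16. In each list of 3 arrays the order is biological replicate 1, technical replicate 2 and biological replicate 2. The level of 1 probe set cannot be set against that of another, and RNA from a whole culture cannot tell fewer cells of a type from less RNA per cell. The files give no detection call, so the level at which a dim probe set stops measuring its gene is not known.

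The labelled cell type was checked with fixed marker lists. Vim (vimentin, the mesenchymal intermediate filament) read 23710, 22430 and 21430 in Colony cells and 19040, 19020 and 20840 in A16 cells, and Col1a2 and S100a4 were also bright in both groups. The fibroblast markers Dcn, Lum and Fap were dim in both, at 20.7 to 50.6 in Colony cells and 23.8 to 47.6 in A16 cells. Of these, Lum was lower in Colony cells, at 22.9, 20.7 and 23.8, against 37.65, 39.5 and 39.3 in A16 cells. Its log2 fold change was -0.775 (adjusted p = 0.00663), and that of Col1a2 was -0.614 (adjusted p = 0.0142). Neither reached the fold threshold, and neither overlapped between groups. The 10 fibroblast markers summed to 55320 to 59610 per array in Colony cells and 72600 to 83340 in A16 cells, with 0 higher and 3 lower (Thy1, Col1a1 and Col3a1). The 8 pericyte and smooth muscle markers summed to 1361 to 1394 in Colony cells and 5858 to 7037 in A16 cells, with Cspg4 higher and Mcam, Acta2 and Tagln lower. The 6 macrophage and leukocyte markers summed to 1427 to 1548 in Colony cells and 1096 to 1240 in A16 cells. Csf1r was higher, while Ptprc (CD45), which marks leukocytes, stayed between 34.7 and 42.3 on all arrays. Cd14 went the other way under the fold threshold, at 534 to 697 in Colony cells and 891 to 1020 in A16 cells (log2 fold change -0.56, adjusted p = 0.0366). The 6 epithelial markers summed to 3154 to 3913 in Colony cells and 909 to 1014 in A16 cells, with Krt8 the 1 call. Cdh1 (E-cadherin) was dim and under the fold threshold, at 46.2, 44.9 and 49 in Colony cells and 30.6, 29.6 and 26.5 in A16 cells (log2 fold change 0.74, adjusted p = 0.00979), while Epcam lay between 21.9 and 26.4 on all arrays. The 4 measured endothelial markers had no call, with sums of 143 to 176 in Colony cells and 134 to 150 in A16 cells. The part of these marker shifts in the values of the PDGF and FGF genes was not tested.

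Pdgfra encodes the alpha receptor, which binds the A, B and C chains of PDGF. Its 1 probe set read 1890, 2071 and 1886 in Colony cells and 1304, 1401 and 1294 in A16 cells. The groups did not overlap in RMA, nor in the authors' second summary, PLIER, and replicates lay close together, with means of 10.92 ± 0.05 in Colony cells and 10.37 ± 0.05 in A16 cells on the log2 scale (SD, n = 2). The log2 fold change was 0.55 (SE 0.13, 95% interval 0.24 to 0.85, adjusted p = 0.0232). The fold was under 2, so Pdgfra was not called. Its value hardly moved over all alternatives tried, 0.51 to 0.58, but its adjusted p reached 0.0545 to 0.101 when any 1 of the 4 biological replicates was left out, Colony or A16: 0.0897 without Colony replicate 1, 0.0655 without Colony replicate 2, 0.0545 without A16 replicate 1 and 0.101 without A16 replicate 2. It was also above 0.05 in PLIER with nothing added (0.0652, and 0.0379 with 16 added). In the methods' t-test the p-value was 0.0072 unadjusted and 0.133 after Benjamini-Hochberg, where 0 of all probe sets were called. The adjusted p from limma was smaller with 6 separate arrays (0.00216) and with the technical arrays averaged with biological replicate 2 (0.00866).

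Pdgfra and Fgf1, picked after their values were seen, are shown by the 250 bases before the RefSeq start of each gene (rat build GRCr8). In this stretch general and growth factor induced factors commonly bind. Pdgfra lies at chr14:33408517-33408766 and Fgf1 at chr18:30961394-30961643, both on the minus strand, written from 5′ to 3′, and capitals mark a match to 1 of 3 motifs searched on both strands: TATAAA (the TATA box), GGGCGG (the GC box) and TGANTCA (the AP-1 site, bound by Fos and Jun proteins).
Pdgfra: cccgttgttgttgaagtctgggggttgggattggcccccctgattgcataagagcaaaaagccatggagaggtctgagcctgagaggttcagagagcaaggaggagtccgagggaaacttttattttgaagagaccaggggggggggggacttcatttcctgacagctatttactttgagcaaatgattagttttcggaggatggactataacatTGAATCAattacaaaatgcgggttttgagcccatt
Fgf1: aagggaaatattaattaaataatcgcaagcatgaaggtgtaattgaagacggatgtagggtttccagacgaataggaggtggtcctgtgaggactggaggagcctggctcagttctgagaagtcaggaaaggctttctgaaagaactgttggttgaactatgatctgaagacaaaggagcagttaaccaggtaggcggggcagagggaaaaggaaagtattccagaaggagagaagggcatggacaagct
Pdgfra had 1 match, to the AP-1 letters, and Fgf1 had 0 matches in this window. Among the other members with a promoter, Fgfr2 had 2 GC box matches and Pdgfa and Pdgfb had 1 each. Fgf7 had 1 TATA box match, and Pdgfc and Fgf2 had 0 matches. Over 33465 such promoters, 12.9% held TATAAA, 30.5% held GGGCGG and 6.34% held TGANTCA. The G and C share was 47.2% for Pdgfra and 46% for Fgf1, with a median of 51.2% over all promoters, and the observed over expected CpG ratio was 0.32 for Pdgfra, 0.38 for Fgf1 and 0.38 at the median. A match is a match of letters; binding was not measured.

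Pdgfrb encodes the beta receptor, the partner of the B chain and a marker of pericytes. The probe set 1370642_s_at read 192, 193 and 146 in Colony cells and 108, 133 and 151 in A16 cells. Colony replicate 2 fell among the A16 arrays, so the groups overlapped, and the log2 fold change was 0.32 (interval -0.13 to 0.77, adjusted p = 0.295). Without Colony replicate 2 the log2 fold change was 0.515. The second, 1391394_s_at, averaged 6.64 ± 0.03 in Colony cells and 6.74 ± 0.08 in A16 cells on the log2 scale (SD, n = 2), and its arrays overlapped, with a log2 fold change of -0.10 (interval -0.40 to 0.21, adjusted p = 0.671). The third, 1379211_at, read 102, 102 and 119 in Colony cells and 86, 89.6 and 73.7 in A16 cells. Here all Colony arrays lay above all A16 arrays, but the log2 fold change of 0.45 (interval 0.08 to 0.82) had an adjusted p of 0.0851. In RMA the 3 probe sets of the gene did not point 1 way, and no interval reached a doubling. In PLIER all 3 were above 0: 1391394_s_at had 0.27 with 16 added to each value and 0.36 with nothing added (adjusted p = 0.379 and 0.345), and all Colony arrays of 1370642_s_at lay above all A16 arrays (0.37 with 16 added, adjusted p = 0.224). With the technical arrays averaged with biological replicate 2, 1370642_s_at had 0.54 (adjusted p = 0.0412). For 1379211_at the adjusted p was 0.0638 in that setting, 0.0371 with 6 separate arrays and 0.0492 with culture as a random block. With the crossed block described below it was 0.0476. In PLIER the adjusted p of 1379211_at was 0.174 with 16 added and 0.145 with nothing added. A probe set with the suffix _s_at may match more than 1 transcript.

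Fgfr1 encodes the FGF receptor typical of mesenchymal cells. The probe set 1372447_at read 386, 352 and 373 in Colony cells and 195, 220 and 295 in A16 cells. All Colony arrays were above all A16 arrays in RMA and in PLIER, and the log2 fold change was 0.58 (SE 0.19, interval 0.14 to 1.03, adjusted p = 0.0684). The spread lay in the A16 cultures, whose SD was 0.36 on the log2 scale, against 0.01 in the Colony cultures. The value was 0.33 (adjusted p = 0.269) without A16 replicate 1 and 0.84 (adjusted p = 0.0131) without A16 replicate 2. In PLIER it was larger, 0.95 with 16 added to each value (adjusted p = 0.016) and 1.00 with nothing added (adjusted p = 0.0195). Its adjusted p was also under 0.05 with quantile normalization (0.0327), with 6 separate arrays (0.00815) and with the technical arrays averaged with biological replicate 2 (0.00885). The fold stayed under 2 in all 18 alternatives, so it was called in 0 of them. The other, 1387498_a_at, read 254, 181 and 187 in Colony cells and 104, 118 and 293 in A16 cells. A16 replicate 2 was the highest of all 6 arrays here and the other A16 arrays were the lowest. Its log2 fold change of 0.15 had an interval of -0.82 to 1.11 (adjusted p = 0.848), and became -0.55 without A16 replicate 1, so no direction can be given for this probe set.

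Fgfr2, whose splice forms serve epithelial and mesenchymal cells, had 5 probe sets, all dim. They read 18.1 to 54.5 in Colony cells and 20.8 to 54 in A16 cells, where the array medians were 97.6 to 101. Their log2 fold changes lay between -0.24 and -0.01, with adjusted p of 0.269 to 0.969. The largest difference, in 1371179_a_at, had an interval of -0.56 to 0.08. For 1373829_at the Colony arrays were all below the A16 arrays in RMA and all above them in PLIER, and the log2 fold changes of 1388168_a_at and 1370630_a_at also had the opposite sign in PLIER. No change of Fgfr2 was detectable with these probe sets.

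**Figure D2:**
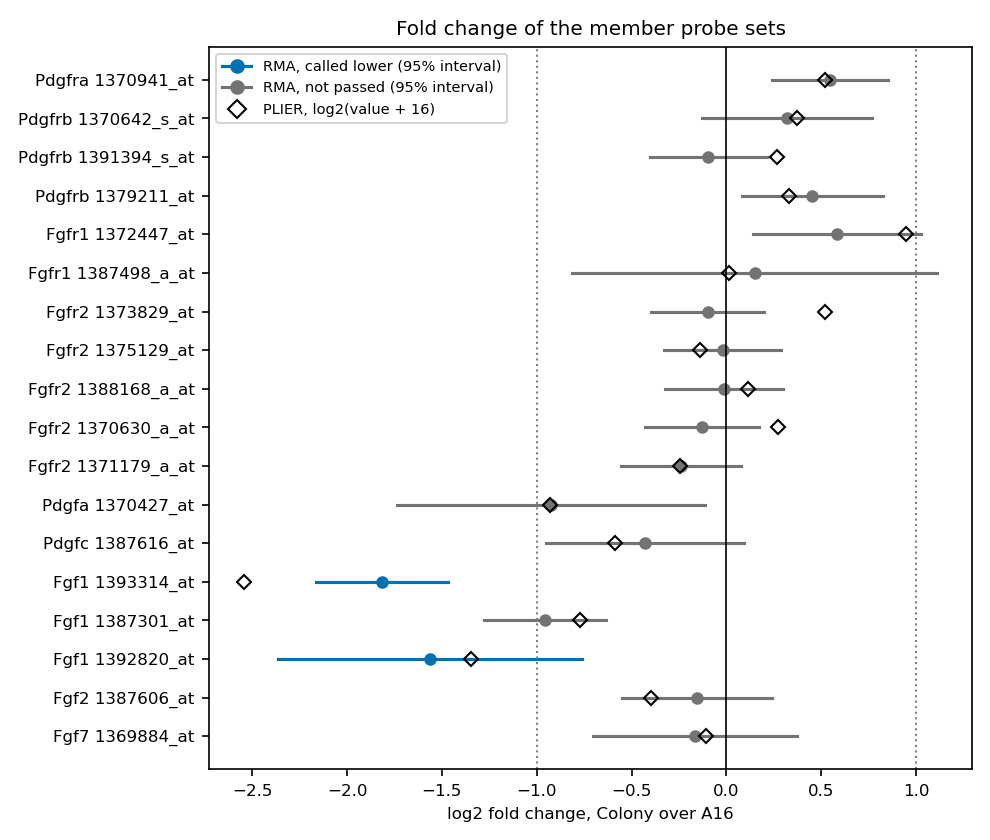
Log2 fold change of Colony over A16 (horizontal axis) of each member probe set (rows) with its 95% interval from limma on RMA values, and the PLIER value as an open diamond; dotted lines mark a fold of 2. The Fgf1 rows lie to the left, from -1.82 to -0.96, while the rows of Pdgfra, of 1372447_at (Fgfr1) and of 1379211_at (Pdgfrb) lie to the right with intervals above 0 and under or across the fold line.

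Of the PDGF ligands, Pdgfa encodes the A chain, a ligand of the alpha receptor. It read 859, 580 and 388 in Colony cells and 678, 846 and 1306 in A16 cells. Colony replicate 1 was above A16 replicate 1, so the groups overlapped, and the replicates of both groups were far apart (SD 0.61 in Colony cells and 0.56 in A16 cells on the log2 scale, n = 2 each). The log2 fold change was -0.93 (SE 0.34, interval -1.74 to -0.11, adjusted p = 0.105). It was called when either first replicate was left out, at -1.32 (adjusted p = 0.0131) without A16 replicate 1 and at -1.36 (adjusted p = 0.0331) without Colony replicate 1. Without A16 replicate 2 it was -0.53, and without Colony replicate 2 it was -0.49, with adjusted p of 0.339 and 0.387. The level of Pdgfa in Colony against A16 cells thus depended on which cultures were set against each other.

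Pdgfc encodes the C chain, which is secreted in a latent form and freed by proteases. It read 531, 505 and 484 in Colony cells and 557, 520 and 846 in A16 cells. The arrays overlapped in RMA, though all Colony arrays were lower in PLIER, and A16 replicate 2 stood above the rest. The log2 fold change was -0.43 (interval -0.95 to 0.09, adjusted p = 0.225). It was -0.10 (adjusted p = 0.842) without A16 replicate 2 and -0.76 (adjusted p = 0.0178) without A16 replicate 1, under the fold threshold in both.

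Fgf1 encodes acidic FGF, a ligand without a classical secretion signal that binds all FGF receptors. The brightest probe set, 1393314_at, read 67.1, 85.5 and 62.7 in Colony cells and 227, 256 and 244 in A16 cells. Every Colony array was below every A16 array, and replicates within a group lay near each other. The mean was 6.11 ± 0.19 in Colony cells and 7.92 ± 0.01 in A16 cells on the log2 scale (SD, n = 2), a log2 fold change of -1.82 (SE 0.15, interval -2.16 to -1.47, adjusted p = 0.000341). In PLIER the same probe set read 58.1, 51.4 and 25.4 in Colony cells and 279, 308 and 307 in A16 cells, and its log2 fold change was larger in size, -2.55 with 16 added to each value and -3.01 with nothing added.

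The second called probe set of Fgf1, 1392820_at, read 25.9, 29.3 and 22.4 in Colony cells and 50.7, 49.4 and 108 in A16 cells. A16 replicate 2 was again apart from the other A16 arrays. Its log2 fold change was -1.56 (SE 0.34, interval -2.36 to -0.76, adjusted p = 0.0169), and it was not called without Colony replicate 2 (-1.42, adjusted p = 0.0697). Without A16 replicate 1 it was -2.12 (adjusted p = 8.34e-05), and without A16 replicate 2 it was -1.01 (adjusted p = 0.0082). The third, 1387301_at, read 61.1, 63.8 and 57.2 in Colony cells and 109, 112 and 122 in A16 cells. Groups were again separate, and the log2 fold change of -0.96 (SE 0.14, interval -1.28 to -0.63, adjusted p = 0.00339) lay just under the fold threshold, passing it at -1.02 without A16 replicate 1 and at -1.02 without Colony replicate 1. Averaged over the 3 probe sets, Fgf1 had a log2 fold change of -1.44 (adjusted p = 0.000458). Its probe sets thus had 1 direction and different sizes. The Colony values of all 3 probe sets were under the array medians of 97.6 to 101.

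Fgf2 encodes basic FGF, the fibroblast mitogen kept on heparan sulphate of the matrix. It read 67.4, 86.1 and 101 in Colony cells and 101, 93.7 and 97.6 in A16 cells. The groups overlapped, and the log2 fold change was -0.15 (interval -0.55 to 0.24, adjusted p = 0.586). In PLIER all Colony arrays (67.4, 66.4 and 79.6) lay below all A16 arrays (88.2, 92.8 and 113), with a log2 fold change of -0.40 with 16 added to each value and -0.47 with nothing added (adjusted p = 0.141 and 0.143). Fgf7, the keratinocyte growth factor that mesenchymal cells make for epithelium, read 208, 242 and 361 in Colony cells and 298, 359 and 311 in A16 cells. Colony replicate 2 was the highest of all 6 arrays, so the groups overlapped, and the log2 fold change was -0.16 (interval -0.70 to 0.37, adjusted p = 0.678). In RMA the interval for Fgf2 leaves out a change of 2-fold in either direction, and the same holds for Fgf7, but neither shows that the levels are alike. The sign of both turned without Colony replicate 1, to 0.05 for Fgf2 and 0.18 for Fgf7.

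Around these members, 96 other genes of the PDGF and FGF systems were listed by role, and 86 had a probe set. By the brightest probe set of each gene, 5 were higher, 11 were lower and 70 did not pass, with a median log2 fold change of 0.00, while over all 14217 genes 620 were higher and 676 lower with a median of 0.05. By role, of 27 genes for co-receptors and ligand handling 0 were higher and 7 lower (median -0.28), and of 13 feedback inhibitors and targets 4 were higher and 2 lower (median -0.18). Of 23 adaptors and effectors 1 was higher and 1 lower (median 0.12). For 8 more genes a dimmer probe set was called while the brightest was not, 3 higher (Fgf9, Sdc1 and Hs2st1) and 5 lower (Sdc2, Frs2, Stat3, Crk and Cbl). These 8 were named after their values were seen. The 86 genes had 142 probe sets. The share of such genes over all genes is not given here, so the count of 8 says nothing of the lists. Frs2, Crk and Cbl each had probe sets of both signs. The brightest of Frs2 had 0.66 (adjusted p = 0.0166) and its called one -1.40. For Crk, 1 probe set had 0.87 (adjusted p = 0.00632) and its called one -1.22. The brightest of Cbl had 0.12 (adjusted p = 0.616) and its called one -1.81.

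**Figure D3:**
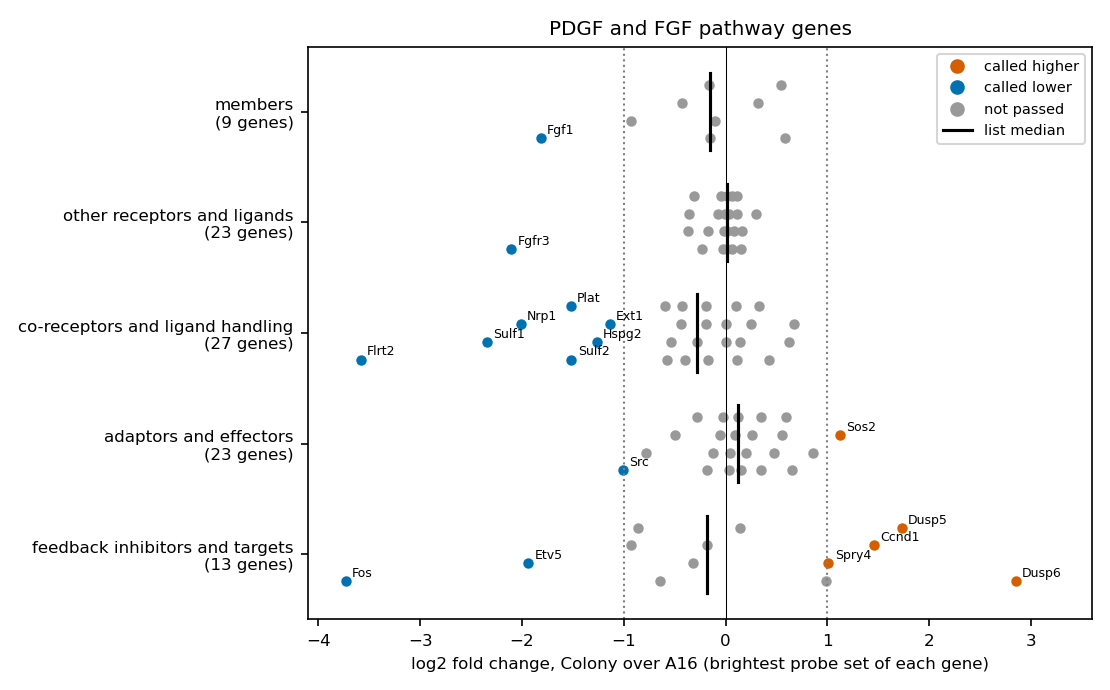
Log2 fold change of Colony over A16 (horizontal axis) of each gene by its brightest probe set, for the members and 4 lists of other pathway genes (rows); colour gives the call, the black bar the median of the list, dotted lines a fold of 2, and height within a row only separates the points. Called genes of the co-receptor list all lie to the left, and Dusp6, Dusp5, Ccnd1 and Spry4 lie to the right in the list that also holds Fos and Etv5 on the left.

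Of the other 23 receptors and ligands, 0 were higher and 1 was lower, with a median log2 fold change of 0.01. The 1 was Fgfr3, a further FGF receptor kinase. It read 59.7, 74.7 and 52.5 in Colony cells and 236, 265 and 259 in A16 cells, with no overlap. Its log2 fold change was -2.11 (SE 0.16, adjusted p = 0.000244), and its second probe set was lower as well (-1.16, adjusted p = 0.00272). The other 22, among them Fgfr4, Fgf9 and Fgf10, did not pass by their brightest probe set and lay between -0.37 and 0.30.

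In the list of co-receptors and ligand handling, Flrt2, a membrane protein with leucine rich repeats whose family binds FGF receptors, fell furthest. It read 95.4, 90.9 and 80 in Colony cells and 1031, 1224 and 956 in A16 cells, a log2 fold change of -3.59 (SE 0.15, adjusted p = 2.85e-05). Sulf1, which trims sulphate from heparan chains outside the cell, read 89.5, 68.9 and 79.3 in Colony cells and 372, 443 and 395 in A16 cells (log2 fold change -2.34, adjusted p = 6.44e-05). Its other, dimmer probe set had a log2 fold change of 0.13 (adjusted p = 0.626), so the call rests on 1 of 2 probe sets. Nrp1, neuropilin 1, a co-receptor best known for VEGF and semaphorins that also binds PDGF, had log2 fold changes of -2.01 and -2.32 in its 2 probe sets (adjusted p = 0.000237 and 0.000112). The brighter of these read 63.1, 56.1 and 52.2 in Colony cells and 244, 243 and 207 in A16 cells. Plat, tissue plasminogen activator, a protease that can free latent PDGF, read 42.7, 49.6 and 36 in Colony cells and 114, 109 and 123 in A16 cells (log2 fold change -1.52, adjusted p = 0.00112; -2.43 to -1.34 over the alternatives).

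The other called genes of this list fall outside the naming rule and are named after their values were seen. Sulf2, the paralogue of Sulf1, fell by 1.51 on the log2 scale (adjusted p = 0.000561). Hspg2, the heparan sulphate core protein perlecan, had a log2 fold change of -1.26 (adjusted p = 0.0153), and was not called without A16 replicate 2 (-0.85, adjusted p = 0.0156) nor without Colony replicate 2 (-1.16, adjusted p = 0.0638). Its call was also lost with the technical arrays left out (-1.09, adjusted p = 0.0788) or averaged with biological replicate 2 (-0.91, adjusted p = 0.0303, under the fold threshold), and it stood in 12 of 18 alternatives. Ext1, which builds the heparan sulphate chain, had -1.14 (adjusted p = 0.00422) by its brightest probe set but 0.67 (adjusted p = 0.0186) by the other, and was not called without A16 replicate 2 (-0.93). The brightest probe set of Ext1 was called in 15 of 18 alternatives, with log2 fold changes of -1.35 to -0.93. For Ext1, as for Sulf1, the result belongs to 1 of 2 probe sets.

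Among adaptors and effectors, Sos2, an exchange factor that loads Ras with GTP, rose. It read 1789, 1777 and 1639 in Colony cells and 797, 827 and 762 in A16 cells, a log2 fold change of 1.12 (SE 0.13, adjusted p = 0.0016). Its paralogue Sos1 had a log2 fold change of 0.86 (adjusted p = 0.00451) by its brightest probe set, under the fold threshold. The dimmer probe set of Sos1 had 0.34 (adjusted p = 0.105). Src, the tyrosine kinase that binds activated PDGF receptors, read 524, 336 and 284 in Colony cells and 511, 706 and 797 in A16 cells by its brightest probe set. Colony replicate 1 was above A16 replicate 1, and the log2 fold change of -1.004 (adjusted p = 0.0204) stood at the threshold and was not called without A16 replicate 2 (-0.80, adjusted p = 0.054) nor without Colony replicate 2 (-0.72, adjusted p = 0.075). Over 18 alternatives this probe set was called in 6, with log2 fold changes of -1.29 to -0.62, PLIER values and every other use of the technical arrays being among those without a call. The other 3 probe sets of Src had log2 fold changes of -1.57, -1.77 and -1.33 (adjusted p = 0.0158, 0.0534 and 0.0198).

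Feedback inhibitors and targets moved in both directions. Dusp6, the phosphatase that switches off ERK in the cytoplasm, read 6993, 5194 and 3951 in Colony cells and 713, 628 and 686 in A16 cells by its brightest probe set (log2 fold change 2.85, SE 0.21, adjusted p = 0.000218). Its 2 other probe sets had -0.57 (adjusted p = 0.0644) and 0.72 (adjusted p = 0.0331), so the probe sets of this gene do not share a direction. Dusp5, the nuclear phosphatase for ERK, read 1967, 1733 and 1651 in Colony cells and 472, 508 and 565 in A16 cells (log2 fold change 1.73, adjusted p = 0.000403). Both genes had every Colony array above every A16 array in these probe sets.

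In the opposite direction, Fos, an immediate early transcription factor induced by serum and growth factors, read 34.2, 49.5 and 47.8 in Colony cells and 581, 571 and 602 in A16 cells (log2 fold change -3.73, SE 0.14, adjusted p = 1.86e-05). Its dimmer probe set showed no such difference (-0.05, adjusted p = 0.933). Etv5, an ETS factor that FGF signalling commonly induces, had a log2 fold change of -1.94 (adjusted p = 0.000882) by its brightest probe set and 0.90 (adjusted p = 0.00447) by the other, with no overlap between groups in either. For Fos, Etv5 and Dusp6 the result therefore belongs to a probe set and not to the gene as a whole.

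The last 2 called genes of this list were named after their values were seen. Ccnd1, cyclin D1, which drives entry into the cell cycle, rose by 1.46 on the log2 scale (adjusted p = 0.000478), and its other 2 probe sets had 0.67 and 0.96 (adjusted p = 0.041 and 0.00279). Spry4, a Sprouty inhibitor, rose by 1.01 (adjusted p = 0.00218), at the fold threshold, and was not called without A16 replicate 2 (0.98) nor without Colony replicate 1 (0.97). Spry2 had 0.98 and Spry1 -0.93 (adjusted p = 0.00402 and 0.0054), both under the fold threshold and of opposite sign.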

How the data were processed

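RNA of 3 Colony and 3 A16 arrays was measured; NA16 and tumour arrays were not analysed here. Per the labels and the paper's methods, the authors read the images with GeneChip Operating Software and used the Avadis program for 2 summaries of each probe set, RMA and PLIER; which versions of RMA, PLIER and Avadis is not given in the sources used here. The authors deposited both as linear intensity. RMA had been planned for as log2 values, so log2 was taken of the deposited intensity. Normalization of whole arrays assumes that most probe sets do not change.

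Array medians were 97.6 to 101. The SD of log2 differences was 0.174 to 0.331 within groups and 0.673 to 0.762 between groups; the number of cultures, 2 per group, limits the precision. Technical arrays, whose labels name no culture, were averaged on the log2 scale with the array of biological replicate 1. Scan dates and slides are not in the labels, so no batch was tested.

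Of 31099 probe sets, 57 controls were left out. The remaining 31042 were fitted with limma 3.58.1 (lmFit, then eBayes, whose prior degrees of freedom were 4.76) under R 4.3.3, with Benjamini-Hochberg adjustment over all of them and no filter on dim values; the fit was tested on simulated data. In the probe annotation 20826 probe sets (67.1%) had 1 symbol, 436 several and 9780 none; 20758 symbols were brought up to date by gene ID with the RefSeq table of GRCr8. Promoters are from RefSeq (GRCr8); 8 of the 10 members were matched, Pdgfrb and Fgfr1 were not. Figures used Python 3.11.15 and matplotlib 3.10.9.

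The members and lists were chosen with earlier results of these data known. Named were all members with every probe set and, from each pathway list, up to 4 called genes with the largest change by the brightest probe set. Alternatives were PLIER values, other uses of the technical arrays, a replicate block, other scalings, a filter on dim probe sets, a trended variance, leaving out each replicate and the methods' t-test.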

Additional observations from a re-analysis of the deposited data

How the results depend on the processing

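Over the alternatives the 2 called member probe sets, both of Fgf1, kept their sign, and the total of called probe sets was 2794 to 3688 without the methods' t-test. Leaving out 1 culture left 1 in its group, assumed to vary like the other group. Lower member probe sets then numbered 1 to 4 (1 without Colony replicate 2, 4 without Colony replicate 1, 4 without A16 replicate 1), lower member genes 1 to 2 (Pdgfa joined without Colony replicate 1 or A16 replicate 1), and pathway genes 4 to 6 higher and 8 to 12 lower. The methods' t-test, run here with equal variances on 2 cultures per group, called 1 lower member probe set unadjusted and 2383 in all. After Benjamini-Hochberg it called 0 of all probe sets, so 0 member probe sets, 0 member genes and 0 pathway genes in either direction. With 2 residual degrees of freedom it has little power after that adjustment, so these counts of 0 say nothing of the members. The paper names a t test without giving its design. The numbered cultures did not deviate together: the correlation over probe sets was -0.148. With 2 cultures per group this value cannot show how the numbers of the groups relate. A crossed block, which pairs replicate 1 of each group with replicate 2 of the other, was tried as well. With a replicate block 2 member probe sets and 1 gene were lower, 5 pathway genes were higher and 11 lower, and 3121 probe sets were called; the crossed block, chosen after seeing the data, gave the same counts for members and pathway genes and 3135 in all.

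Signs turned only in probe sets that were not called. With PLIER, as log2(value + 16) and log2(value), the log2 fold change was 0.27 and 0.36 for 1391394_s_at (Pdgfrb), and for Fgfr2 it was 0.52 and 0.58 (1373829_at), 0.11 and 0.14 (1388168_a_at), and 0.27 and 0.31 (1370630_a_at). Leaving out 1 culture at a time gave -0.552 (without A16 replicate 1) to 0.85 (without A16 replicate 2) for 1387498_a_at (Fgfr1), -0.353 (without Colony replicate 2) to 0.047 (without Colony replicate 1) for Fgf2 and -0.508 (without Colony replicate 2) to 0.18 (without Colony replicate 1) for Fgf7. For Fgfr2 it gave -0.073 (without Colony replicate 2) to 0.036 (without Colony replicate 1) for 1375129_at, with 0.018 without A16 replicate 1, and -0.075 (without A16 replicate 2) to 0.053 (without A16 replicate 1) for 1388168_a_at, with 0.002 without Colony replicate 2; this last probe set had 0.049 without the technical arrays. The cause was not tested. Of the member probe sets' values under alternatives, 297 kept sign and side of the threshold, 16 turned, 5 gained and 4 lost a call; of those of called pathway genes 252 kept both and 36 lost the call. The filter on dim probe sets left no value for 1370630_a_at and 1371179_a_at (Fgfr2).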
